A study of Mus musculus with 18 samples.

Results

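The 33 genes described here encode enzymes and regulators of cholesterol and fatty acid synthesis, taken by gene symbol from 55098 genes with a unique symbol in the expression files of mouse 2-cell embryos. They were 18 sterol enzymes, 5 regulators and 10 fatty acid enzymes, and all 33 symbols were found. Values were FPKM, which scales the fragments of a gene by its length and by the fragments of the library.

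RNA had been amplified by Smart-seq2, a full-length method for polyadenylated RNA, from tubes of 5 to 10 embryos each, giving 18 libraries in 7 groups. In the siRNA experiment, embryos labelled siEchs1 (siRNA against Echs1) at L2C were set against embryos labelled siCon (control siRNA) at L2C, and siEchs1 embryos at E2C against siCon embryos at E2C, and each of these 4 groups had 3 libraries. The treatment experiment used wild-type zygotes given sodium crotonate, sodium acetate or else DMSO, and sampled as early 2-cell embryos (E2C), and each of its 3 groups had 2 libraries. No label gave a strain, a dose, an hour of collection or the meaning of L2C, or a genotype for the siRNA experiment. Whether replicates were independent cultures is not stated, so p-values measure only the spread between these tubes, which may be technical.

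Cholesterol is built from acetyl-CoA through mevalonate, farnesyl diphosphate and squalene, which is closed to lanosterol and then trimmed to cholesterol in the endoplasmic reticulum. Fatty acids are built from malonyl-CoA, then elongated and desaturated. Both arms are classic targets of the SREBP transcription factors, which SCAP carries to the Golgi for cleavage when sterol is low and which INSIG proteins hold back when sterol is high. Mouse oocytes are known to make little cholesterol themselves and to be supplied by the cumulus cells around them.

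Echs1, the mitochondrial enzyme that hydrates crotonyl-CoA and the target of the siRNA, was at 0.89, 4.32 and 4.25 FPKM in siEchs1 L2C replicates 1 to 3, against 38.6, 39.2 and 24.4 FPKM in siCon L2C. At E2C it was at 0.71, 5.88 and 3.82 FPKM in siEchs1 embryos, against 30.5, 27.5 and 32.5 FPKM in siCon embryos. In the treatment experiment it lay between 27.8 and 42.6 FPKM. Replicate 3 of siEchs1 E2C stood apart from the other two, with a Spearman correlation across genes of 0.668 and 0.718 with them, against 0.861 to 0.937 within the other siRNA groups. Mitochondrially encoded RNA took 0.831% to 2.27% of all FPKM in siEchs1 L2C and 7.58% to 11.2% in siCon L2C. At E2C it took 2.82%, 1.69% and 10.3% in siEchs1 replicates 1 to 3 and 13.1% to 17.1% in siCon. The 2-cell and oocyte markers were detected, with at least 9 of 10 at 1 FPKM or more in every library. Their levels were not matched between groups. The 2-cell marker Zscan4c was at 0.52 to 13.0 FPKM in siEchs1 L2C and 25.9 to 76.9 FPKM in siCon L2C. At E2C it was at 11.4 to 28.6 FPKM in siEchs1 and 118 to 152 FPKM in siCon. The oocyte marker Zp3 went the other way at L2C, as given below. The part of these differences between libraries in the results below was not tested unless a value is given.

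Levels spanned a wide range among the 33 genes. A group mean of at least 1 FPKM was reached by 29 genes in siEchs1 L2C and all 33 in siCon L2C. At E2C it was reached by 30 genes in siEchs1 and 27 in siCon. The group mean was at least 10 FPKM in every one of the 7 groups for 9 genes, which were Hmgcs1, Idi1, Fdft1, Msmo1, Nsdhl, Sc5d, Srebf2, Insig1 and Elovl1. Fads1, the delta-5 desaturase, had group means of 0.193 FPKM in siEchs1 L2C, 0.303 FPKM in siEchs1 E2C and 1.83 FPKM in siCon L2C, and under 1 FPKM in the other 4 groups. Scd2 and Fads1 stayed below the filter on low values, so 31 of the 33 genes were tested in the siRNA experiment. All 33 are protein-coding in GENCODE M21 (mm10), where Srebf1 lies at chr11:60199089-60222581 on the minus strand, Scd1 at chr19:44394455-44407879 on the minus strand and Insig1 at chr5:28071363-28078662 on the plus strand. Exons of Hmgcs1, Idi1, Fdps, Fdft1, Lss, Cyp51, Tm7sf2, Srebf1, Scap, Scd2, Elovl1 and Elovl6 overlap exons of another annotated gene by 34 to 1124 nt. How reads in such stretches were assigned is not shown.

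**Figure D1:**
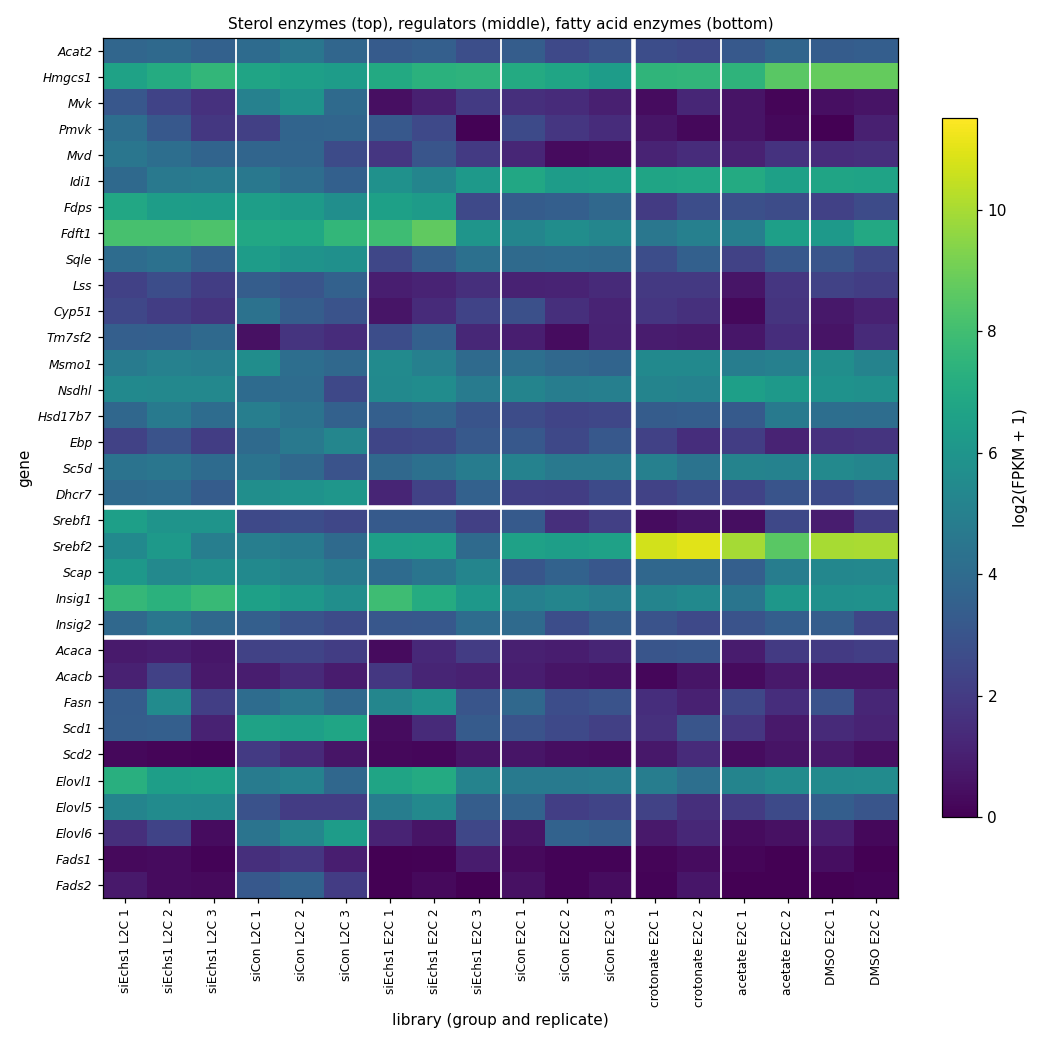
Heat map of log2(FPKM + 1) for the 33 genes (vertical axis, by role) in the 18 libraries (horizontal axis, by group, with the thick vertical line between the experiments). Srebf2 is the brightest entry, at 377 to 2054 FPKM in the treatment libraries, and Scd2, Fads1 and Fads2 are dark in most libraries.

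At L2C, the set split in opposite directions after Echs1 siRNA. Mvk of the mevalonate steps, Sqle, Lss, Cyp51, Ebp and Dhcr7 of the later sterol steps, and Acaca, Scd1, Fads2 and Elovl6 of the fatty acid arm were lower in siEchs1 embryos. The regulators Srebf1, Insig1 and Insig2, the elongases Elovl1 and Elovl5, and the sterol enzymes Tm7sf2 and Nsdhl were higher. Of 31 genes tested, 7 were higher and 10 lower at an adjusted p under 0.05, beside 21.9% higher and 26.9% lower (48.8% in either direction) of all 17652 genes tested. The share called was thus close to that of all genes. The median log2 difference was 0.36 over the 31 genes and -0.08 over all genes tested. By role, 2 sterol enzymes were higher and 6 lower of 18, 3 regulators were higher and 0 lower of 5, and 2 fatty acid enzymes were higher and 4 lower of 8. The median log2 difference was 0.14 over the sterol enzymes, 1.07 over the regulators and -0.96 over the fatty acid enzymes tested.

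Scd1, the delta-9 desaturase that makes oleate, was at 9.54, 10.3 and 1.14 FPKM in siEchs1 L2C replicates 1 to 3, against 99.2, 88.7 and 106 FPKM in siCon L2C. Every siEchs1 library lay far below every siCon library. Scd1 fell by 3.96 on the log2(FPKM + 1) scale (SE 0.715, adjusted p = 0.000794). Its neighbour Scd2, another delta-9 desaturase, was at 0.18, 0.11 and 0.08 FPKM in siEchs1 L2C, against 2.93, 1.55 and 0.59 FPKM in siCon L2C. Elovl6, which elongates palmitate to stearate, was at 1.93, 3.96 and 0.32 FPKM in siEchs1 L2C, against 20.7, 37.3 and 81.2 FPKM in siCon L2C. The groups did not overlap, and Elovl6 fell by 3.93 (SE 0.814, adjusted p = 0.00188). Fads2, the delta-6 desaturase of polyunsaturated fatty acids, was at 0.70, 0.27 and 0.23 FPKM in siEchs1 L2C, against 7.95, 11.3 and 3.14 FPKM in siCon L2C. It was near 0 in all 3 siEchs1 libraries and was lower by a log2 difference of -2.47 (SE 0.362, adjusted p = 0.000233). Fads2 passed the filter on low values only through the siCon L2C libraries, with all other siRNA libraries at 0.70 FPKM or less, so the choice of genes tested already made siCon L2C its high group and this call, counted among the 10 lower genes, carries no independent weight.

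Acaca, the acetyl-CoA carboxylase that makes malonyl-CoA for fatty acid synthesis, was at 0.76, 0.92 and 0.63 FPKM in siEchs1 L2C, against 3.81, 4.19 and 3.21 FPKM in siCon L2C. It fell by 1.42 (SE 0.377, adjusted p = 0.00811) with no overlap. Fasn, the fatty acid synthase that uses malonyl-CoA, was at 9.10, 45.4 and 3.37 FPKM in siEchs1 L2C, against 15.8, 22.3 and 13.6 FPKM in siCon L2C. The siEchs1 libraries spread more widely than the difference, with replicate 2 above and the others below all siCon libraries, and Fasn did not pass (log2 difference -0.49, adjusted p = 0.639). Acacb, the mitochondrial carboxylase, averaged 1.81 ± 1.56 FPKM in siEchs1 L2C and 1.11 ± 0.440 FPKM in siCon L2C (SD, n = 3 each) and did not pass either.

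The elongases Elovl1 and Elovl5 went the other way. Elovl5, which elongates polyunsaturated fatty acids, was at 35.8, 45.6 and 44.4 FPKM in siEchs1 L2C, against 6.46, 3.07 and 3.11 FPKM in siCon L2C. The lowest siEchs1 library was well above the highest siCon library, and Elovl5 rose by 3.10 (SE 0.533, adjusted p = 0.000593). Elovl1, which elongates saturated very-long-chain fatty acids, was at 152, 86.2 and 92.6 FPKM in siEchs1 L2C, against 27.0, 33.3 and 13.3 FPKM in siCon L2C. It rose by 2.17 (SE 0.481, adjusted p = 0.00284), again with no overlap.

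Among the sterol enzymes, Sqle, the squalene epoxidase of the first oxygen-dependent step, was at 15.9, 18.45 and 11.01 FPKM in siEchs1 L2C, against 79.9, 59.6 and 54.45 FPKM in siCon L2C. It fell by 2.04 (SE 0.408, adjusted p = 0.0015), and the groups were far apart. Dhcr7, the reductase of the final step of one branch, was at 14.8, 15.5 and 9.32 FPKM in siEchs1 L2C, against 50.4, 57.5 and 64.2 FPKM in siCon L2C. It fell by 2.06 (SE 0.49, adjusted p = 0.00433), again without overlap. Ebp, the isomerase that moves the sterol ring double bond, was at 3.82, 6.59 and 3.27 FPKM in siEchs1 L2C, against 14.9, 23.7 and 38.2 FPKM in siCon L2C. It fell by 2.21 (SE 0.41, adjusted p = 0.000933), and its siCon libraries spread more than its siEchs1 libraries.

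Mvk, mevalonate kinase, was at 7.61, 4.04 and 2.15 FPKM in siEchs1 L2C, against 31.8, 59.7 and 14.8 FPKM in siCon L2C. It fell by 2.62 (SE 0.54, adjusted p = 0.00184), with the groups apart. Lss, the cyclase that forms lanosterol, was at 3.70, 5.53 and 3.3 FPKM in siEchs1 L2C, against 9.40, 7.27 and 11.03 FPKM in siCon L2C. It fell by 0.99 (SE 0.312, adjusted p = 0.0197), a smaller difference than that of Mvk. Cyp51, the lanosterol demethylase, was at 4.45, 3.19 and 2.30 FPKM in siEchs1 L2C, against 19.4, 9.42 and 6.57 FPKM in siCon L2C. It fell by 1.47 (SE 0.54, adjusted p = 0.0385), with siCon replicate 1 high. The Cyp51 and Lss calls were lost when single libraries were left out. Without siCon L2C replicate 1 the adjusted p was 0.153 for Cyp51 and 0.0508 for Lss.

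Tm7sf2 and Nsdhl, a sterol C14 reductase and a C4 decarboxylase of the steps between, were the 2 sterol enzymes called as higher. Tm7sf2 was at 10.3, 10.7 and 14.4 FPKM in siEchs1 L2C, against 0.42, 2.31 and 1.73 FPKM in siCon L2C. All siEchs1 libraries were above all siCon libraries, and it rose by 2.43 (SE 0.515, adjusted p = 0.00213). Nsdhl was at 42.8, 39.8 and 40.6 FPKM in siEchs1 L2C, against 15.01, 15.6 and 4.66 FPKM in siCon L2C. Its siEchs1 libraries lay close together above all siCon libraries, and it rose by 1.88 (SE 0.405, adjusted p = 0.00244). Exons of Tm7sf2 overlap those of Vps51 on the same strand by 532 nt, and how such reads were split is not stated.

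The other 10 sterol enzymes did not pass at L2C. Their log2 differences ran from -0.32 for Acat2, the cytosolic thiolase that starts the pathway, to 1.08 for Fdft1, squalene synthase. Fdft1 was at 285, 288 and 316 FPKM in siEchs1 L2C, against 118, 115 and 198 FPKM in siCon L2C, without overlap but with an adjusted p of 0.111. Without siEchs1 E2C replicate 3, which enters the shared spread, that adjusted p was 0.00453. Hmgcs1, HMG-CoA synthase, averaged 142 ± 48.6 FPKM in siEchs1 L2C and 91.8 ± 12.4 FPKM in siCon L2C (adjusted p = 0.158). Fdps, farnesyl diphosphate synthase, averaged 94.6 ± 21.5 FPKM in siEchs1 L2C and 71.0 ± 18.7 FPKM in siCon L2C (adjusted p = 0.683). Idi1, the isomerase before it, averaged 21.6 ± 6.49 FPKM in siEchs1 L2C and 16.7 ± 6.48 FPKM in siCon L2C (adjusted p = 0.441).

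Among the regulators, Srebf1, which encodes the SREBP best known for fatty acid genes, was at 89.3, 60.4 and 60.7 FPKM in siEchs1 L2C, against 4.78, 5.53 and 4.46 FPKM in siCon L2C. The groups were far apart, and Srebf1 rose by 3.57 (SE 0.439, adjusted p = 0.000106), the lowest adjusted p of the 31 genes. Srebf2, which encodes the SREBP best known for sterol genes, was at 42.4, 74.1 and 29.4 FPKM in siEchs1 L2C, against 29.6, 24.9 and 14.8 FPKM in siCon L2C. Its groups overlapped, and it did not pass (log2 difference 1.00, adjusted p = 0.186). Insig1, a sterol-dependent brake on SREBP, was at 200.3, 161 and 211 FPKM in siEchs1 L2C, against 92.9, 69.05 and 50.5 FPKM in siCon L2C. It rose by 1.45 (SE 0.409, adjusted p = 0.0112) without overlap. Insig2, the second such protein, was at 13.6, 22.15 and 13.4 FPKM in siEchs1 L2C, against 10.25, 6.67 and 5.15 FPKM in siCon L2C. It rose by 1.07 (SE 0.414, adjusted p = 0.0488), close to the threshold, and its adjusted p was 0.171 without siEchs1 L2C replicate 2. Scap averaged 53.9 ± 14.4 FPKM in siEchs1 L2C and 34.3 ± 8.85 FPKM in siCon L2C and did not pass (adjusted p = 0.175).

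**Figure D2:**
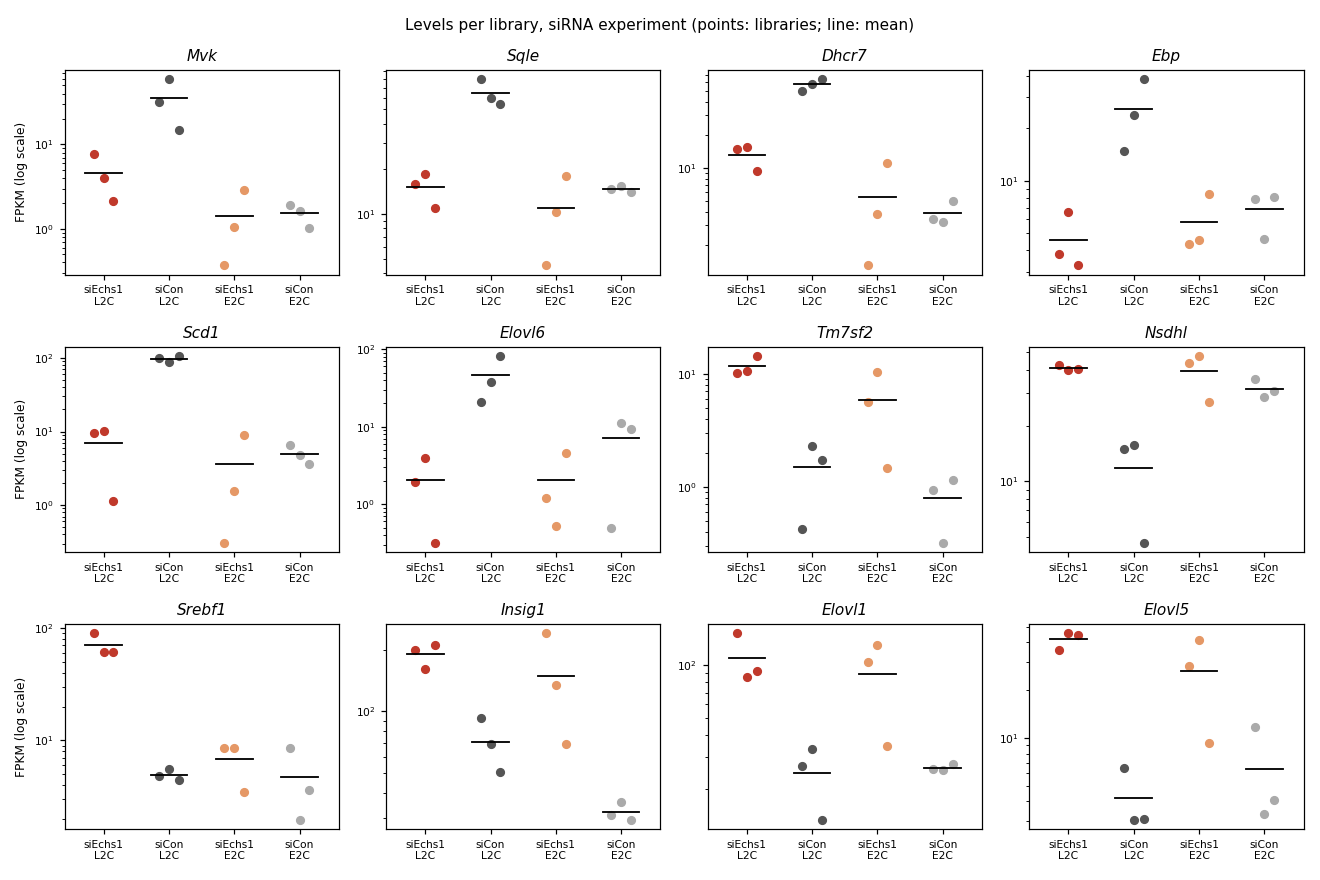
Levels of 12 of the genes in FPKM (vertical axis, log scale) in the 4 groups of the siRNA experiment, with 1 point per library and a line at the group mean. Mvk, Sqle, Dhcr7, Ebp, Scd1 and Elovl6 are low in siEchs1 L2C beside siCon L2C, whereas Tm7sf2, Nsdhl, Srebf1, Insig1, Elovl1 and Elovl5 are high; Srebf1 stands at 60.4 to 89.3 FPKM in siEchs1 L2C and under 10 FPKM elsewhere.

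Summed markers of some other cell types also differed between the groups at L2C, with few of the markers at 1 FPKM or more. The 12 cumulus and granulosa markers summed to 12.8 to 19.2 FPKM in siEchs1 L2C and 112 to 149.5 FPKM in siCon L2C. Amhr2 carried most of the siCon sum, at 6.47, 11.7 and 1.49 FPKM in siEchs1 L2C and 104, 91.8 and 145 FPKM in siCon L2C, while Foxl2 was at 0.02 to 0.22 FPKM in siEchs1 L2C and 0 to 1.43 FPKM in siCon L2C, and Has2 was at 0.01 to 0.06 FPKM in siEchs1 L2C and 0.02 to 0.14 FPKM in siCon L2C. Of the 12, 2 to 3 reached 1 FPKM in siEchs1 L2C and 2 to 5 in siCon L2C. The blood markers summed to 3.45 to 18.9 FPKM in siEchs1 L2C and 93.2 to 126 FPKM in siCon L2C. Of them, 1 to 2 reached 1 FPKM in siEchs1 L2C and 2 to 3 in siCon L2C. Sperm markers overlapped, with sums of 7.59 to 19.8 FPKM in siEchs1 L2C and 5.3 to 10.3 FPKM in siCon L2C. Oviduct epithelium markers summed to 1.12 to 1.39 FPKM in siEchs1 L2C and 3.09 to 15.5 FPKM in siCon L2C. Oocyte RNA differed as well, with Zp3 at 4409, 3188 and 2631 FPKM in siEchs1 L2C and 44.8, 70.75 and 93.7 FPKM in siCon L2C. The part of these RNAs in the differences above was not tested. In pooled embryos, fewer cells with a transcript and less of it per cell cannot be told apart.

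Promoter letters were read for the 27 genes with an entry in the RefSeq promoter table (GRCm38.p6), which gives 250 bases before to 50 after each start. Fdps, Fdft1, Sqle, Scd1, Scd2 and Fads1 had no entry. The textbook sterol regulatory element, searched by its letters on both strands, was in 0 of 27 genes, beside 0.0999% of all genes in the table. Its core CACCCCAC, which lies inside it, was in 2 of 27 genes (7.41%), Acat2 and Hmgcs1, beside 3.3% of all genes in the table. The NF-Y box CCAAT, read as ATTGG on the other strand, was in 22 of 27 genes (81.5%), beside 41.1% of all genes in the table. Shown are the windows of Hmgcs1, which holds the core, and of the 2 higher and 2 lower genes with the smallest adjusted p at L2C among those with an entry. Capitals mark CACCCCAC and CCAAT or ATTGG, each sequence runs 5′ to 3′ on the strand of its gene, and the Srebf1 window is the most downstream of its 3 starts.
Hmgcs1, chr13:119690101-119690400, plus strand: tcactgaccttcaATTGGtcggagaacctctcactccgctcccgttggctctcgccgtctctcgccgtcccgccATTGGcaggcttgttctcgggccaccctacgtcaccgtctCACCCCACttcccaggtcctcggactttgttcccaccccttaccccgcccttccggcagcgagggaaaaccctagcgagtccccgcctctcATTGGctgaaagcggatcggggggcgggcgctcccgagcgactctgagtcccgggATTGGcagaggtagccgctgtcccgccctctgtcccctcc
Srebf1, chr11:60210422-60210721, minus strand: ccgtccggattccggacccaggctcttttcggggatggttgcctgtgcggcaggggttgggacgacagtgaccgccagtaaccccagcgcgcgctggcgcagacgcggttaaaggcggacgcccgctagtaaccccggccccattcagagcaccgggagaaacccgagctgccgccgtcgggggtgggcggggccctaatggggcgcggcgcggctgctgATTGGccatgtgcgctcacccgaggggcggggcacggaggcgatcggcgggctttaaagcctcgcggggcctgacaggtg
Elovl5, chr9:77917115-77917414, plus strand: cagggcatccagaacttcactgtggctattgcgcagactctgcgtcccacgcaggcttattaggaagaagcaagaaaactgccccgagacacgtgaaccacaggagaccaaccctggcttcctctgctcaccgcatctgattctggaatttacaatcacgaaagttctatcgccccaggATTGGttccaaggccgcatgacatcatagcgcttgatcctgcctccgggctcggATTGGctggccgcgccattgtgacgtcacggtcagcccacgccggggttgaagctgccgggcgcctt
Fads2, chr19:10101454-10101753, minus strand: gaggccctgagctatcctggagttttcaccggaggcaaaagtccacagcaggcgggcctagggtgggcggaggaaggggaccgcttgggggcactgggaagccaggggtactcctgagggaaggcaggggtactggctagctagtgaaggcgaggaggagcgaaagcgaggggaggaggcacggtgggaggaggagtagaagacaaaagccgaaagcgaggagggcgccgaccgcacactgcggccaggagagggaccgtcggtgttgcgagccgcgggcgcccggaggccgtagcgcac
Ebp, chrX:8193463-8193762, minus strand: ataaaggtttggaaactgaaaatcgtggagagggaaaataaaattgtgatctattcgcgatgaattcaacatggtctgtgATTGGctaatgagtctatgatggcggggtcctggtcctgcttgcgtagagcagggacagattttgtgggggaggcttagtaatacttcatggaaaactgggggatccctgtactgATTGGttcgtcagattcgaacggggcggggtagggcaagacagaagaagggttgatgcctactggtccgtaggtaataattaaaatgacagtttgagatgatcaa
CCAAT letters were thus present in Srebf1 and Elovl5, which were higher in siEchs1 L2C, and in Ebp, which was lower, while the Fads2 window held none of the letters searched. Fads2 was shown for its adjusted p, but it passed the filter on low values only through siCon L2C. Its call carries no independent weight, so its window is not read as that of a lower gene. A match is a description of these windows and not a binding site, and the lack of one says only that these letters were not there.

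At E2C, the called genes were all higher in siEchs1 embryos. Mvd and Fdft1 of the early sterol pathway, Tm7sf2, the regulators Scap and Insig1, and the elongases Elovl1 and Elovl5 were higher, by 2.49-fold to 4.44-fold on the FPKM + 1 scale. Of 31 genes tested, 7 were higher and 0 lower, beside 11.0% higher and 9.31% lower (20.3% in either direction) of all 17652 genes. The median log2 difference was 0.23 over the 31 genes and 0.15 over all genes tested. By role, 3 of 18 sterol enzymes, 2 of 5 regulators and 2 of 8 fatty acid enzymes were called. These calls rested on few libraries. Without siCon replicate 3 or siEchs1 replicate 2, 1 gene was called, and without siCon replicate 1 or 2, 3 were. Without siEchs1 replicate 1, 4 were called, without siEchs1 replicate 3, 14 were, and 0 were when the E2C libraries alone were fitted. Over all genes, the count moved from 3578 to 1748 without siCon replicate 3, 6496 without siEchs1 replicate 3 and 1353 with the E2C libraries alone.

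Insig1 was at 240.2, 134 and 69.1 FPKM in siEchs1 E2C replicates 1 to 3, against 31.25, 36.1 and 29.55 FPKM in siCon E2C. All siEchs1 libraries were above all siCon libraries, with replicate 3 the lowest of them. Insig1 rose by 1.99 (SE 0.409, adjusted p = 0.00607), and its call was kept in 19 of 20 alternatives, the exception being the fit of the E2C libraries alone (adjusted p = 0.0546). Scap, the SREBP escort, was at 14.98, 21.5 and 36.9 FPKM in siEchs1 E2C, against 7.49, 11.1 and 7.59 FPKM in siCon E2C. It rose by 1.31 (SE 0.373, adjusted p = 0.0269), and in this gene replicate 3 was the highest library. Srebf1 was at 8.48, 8.52 and 3.5 FPKM in siEchs1 E2C and 8.53, 1.97 and 3.59 FPKM in siCon E2C, with full overlap (adjusted p = 0.408). Srebf2 was at 88.4, 91.0 and 14.7 FPKM in siEchs1 E2C and 96.2, 85.6 and 95.2 FPKM in siCon E2C, where replicate 3 of siEchs1 lay below all other libraries (adjusted p = 0.321).

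Fdft1 was at 239, 411 and 62.65 FPKM in siEchs1 E2C, against 36.3, 48.7 and 37.7 FPKM in siCon E2C. The groups did not overlap, and it rose by 2.15 (SE 0.534, adjusted p = 0.0151). Exons of Fdft1 overlap those of Ctsb, a lysosomal protease on the other strand, by 774 nt, and the files keep no strand. Ctsb was at 36.7, 66.8 and 7.43 FPKM in siEchs1 E2C, against 11.6, 5.70 and 6.84 FPKM in siCon E2C. Mvd, the mevalonate diphosphate decarboxylase, was at 2.54, 7.29 and 2.90 FPKM in siEchs1 E2C, against 1.32, 0.25 and 0.37 FPKM in siCon E2C. It rose by 1.62 (SE 0.45, adjusted p = 0.0246) at low levels. Tm7sf2 was at 5.60, 10.5 and 1.46 FPKM in siEchs1 E2C, against 0.94, 0.32 and 1.14 FPKM in siCon E2C, and rose by 1.70 (SE 0.515, adjusted p = 0.0358), with replicate 3 close to the siCon libraries.

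Elovl1 was at 104, 131 and 34.9 FPKM in siEchs1 E2C, against 25.8, 25.5 and 27.5 FPKM in siCon E2C. It rose by 1.54 (SE 0.481, adjusted p = 0.0401), without overlap. Elovl5 was at 28.4, 41.6 and 9.39 FPKM in siEchs1 E2C, against 11.8, 3.35 and 4.11 FPKM in siCon E2C. It rose by 1.84 (SE 0.533, adjusted p = 0.0295), although siEchs1 replicate 3 lay below siCon replicate 1. Fasn was at 37.7, 56.4 and 7.07 FPKM in siEchs1 E2C and 13.6, 5.58 and 6.80 FPKM in siCon E2C, so only replicate 3 fell within the siCon range (log2 difference 1.53, adjusted p = 0.206). Scd1 was at 0.31, 1.56 and 8.97 FPKM in siEchs1 E2C and 6.66, 4.82 and 3.58 FPKM in siCon E2C, with replicate 3 above the siCon range and the other two below it (adjusted p = 0.421). Scd2 was at 0.17, 0.15 and 0.56 FPKM in siEchs1 E2C and 0.57, 0.34 and 0.32 FPKM in siCon E2C.

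The count at this stage was highest without replicate 3 of siEchs1 E2C. Fdps was at 92.5, 78.2 and 4.86 FPKM in siEchs1 E2C replicates 1 to 3 and 9.20, 10.2 and 13.7 FPKM in siCon E2C. Without replicate 3, Fdps was higher by 2.86 (adjusted p = 1.87e-05), against 1.56 (adjusted p = 0.181) with it. The same omission brought Msmo1, the sterol C4 methyl oxidase, Hsd17b7, the ketosteroid reductase of that step, and Fasn past the threshold as higher, and Idi1, Sqle and Scd1 as lower. In all 11 genes were then higher and 3 lower, beside 4055 higher and 2441 lower of all 17444 genes tested. Calls over all genes thus rose too, from 3578 with replicate 3 to 6496 without it. Zp3 was at 3071, 3622 and 35.9 FPKM in siEchs1 E2C and 27.99 to 36.7 FPKM in siCon E2C, so this library alone of siEchs1 E2C lay in the siCon range of that oocyte transcript. The cumulus markers summed to 9.83 to 13.45 FPKM in siEchs1 E2C and 8.14 to 15.7 FPKM in siCon E2C, and the blood markers to 2.74 to 10.47 FPKM in siEchs1 E2C and 59.8 to 77.8 FPKM in siCon E2C. Of the blood markers, 1 to 2 reached 1 FPKM in siEchs1 E2C and 2 in siCon E2C. The part of these RNAs in the E2C results was not tested.

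**Figure D3:**
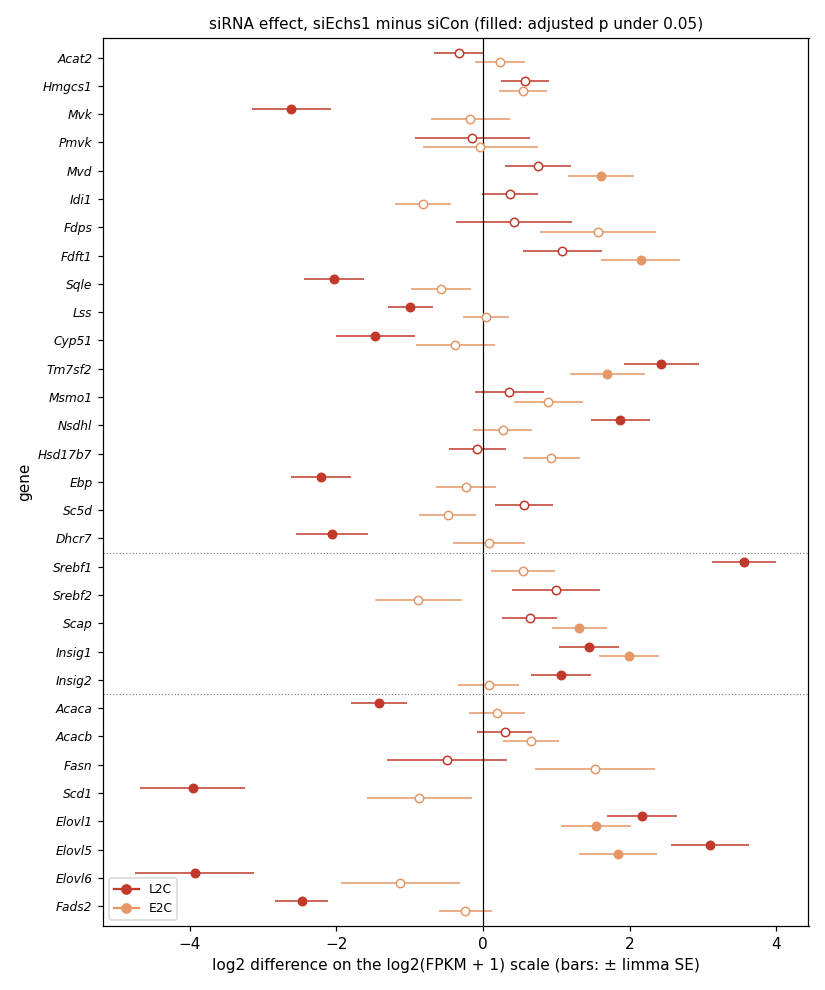
Log2 difference, siEchs1 minus siCon, on the log2(FPKM + 1) scale (horizontal axis; bars show the limma SE) for the 31 genes tested (vertical axis, with dotted lines between sterol enzymes, regulators and fatty acid enzymes), at L2C and at E2C, filled where the adjusted p was under 0.05. Filled L2C points lie on both sides of 0, from -3.96 for Scd1 to 3.57 for Srebf1, and filled E2C points lie above 0.

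The siRNA effect itself differed between stages for 4 of the 31 genes. The difference of effects, L2C minus E2C, was higher for Srebf1 and lower for Mvk, Ebp and Fads2, that is 1 higher and 3 lower, beside 5.65% higher and 11.6% lower (17.2% in either direction) of all genes tested. The median difference was -0.68 over the 31 genes and -0.21 over all genes. Srebf1 differed by 3.02 (SE 0.621, adjusted p = 0.00963), and this call was kept in all 19 alternatives. Fads2 was at 0, 0.24 and 0 FPKM in siEchs1 E2C and 0.45, 0.09 and 0.29 FPKM in siCon E2C, near 0 in both groups, and its effects differed by -2.24 (SE 0.512, adjusted p = 0.0147), a value that rests on the siCon L2C libraries through which it passed the filter.

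Mvk was at 0.37, 1.04 and 2.87 FPKM in siEchs1 E2C and 1.90, 1.65 and 1.02 FPKM in siCon E2C, with overlap. Its effects differed by -2.44 (SE 0.764, adjusted p = 0.0448). Ebp was at 4.32, 4.56 and 8.41 FPKM in siEchs1 E2C and 7.89, 4.64 and 8.10 FPKM in siCon E2C, again with overlap, and its effects differed by -1.97 (SE 0.58, adjusted p = 0.0357). The calls for Mvk and Ebp were lost in 13 and 10 of 19 alternatives. Dhcr7 (-2.14, adjusted p = 0.0508), Scd1 (-3.09, adjusted p = 0.0527) and Acaca (-1.61, adjusted p = 0.0553) missed the threshold narrowly. Between 1 gene (without siCon L2C replicate 2) and 8 genes (without siEchs1 E2C replicate 1) were called when single libraries were left out, and 2 were without any of siCon E2C replicates 1 to 3, siCon L2C replicates 1 or 3, or siEchs1 L2C replicate 3.

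Between stages, more of the set was higher than lower at L2C in siCon embryos, in FPKM, which is relative to each library. Dhcr7, Mvk, Scd1, Mvd, Lss and Sqle were among those higher at L2C than at E2C, while Idi1, Nsdhl, Sc5d and Srebf2 were lower. In siCon, 17 of 31 genes were higher and 4 lower, beside 35.8% higher and 14.4% lower (50.2% in either direction) of all genes, with a median of 1.198 against 0.51 over all genes. After quantile normalization, which took the median of all genes to -0.01, 12 were higher and 5 lower. Of all 17652 genes tested, 4192 were then higher and 4243 lower. By role in siCon, 11 sterol enzymes were higher and 3 lower of 18, and 2 regulators were higher and 1 lower of 5. Of 8 fatty acid enzymes, 4 were higher. Fads2 is 1 of these 4 and is also among the 17 higher genes. It passed the filter on low values only through siCon L2C, so its call carries no independent weight here. In siEchs1, 3 genes were higher and 1 lower, beside 11.8% higher and 2.73% lower (14.6% in either direction) of all genes, with a median of 0.58 against 0.23 over all genes. With E2C replicate 3 left out of siEchs1, 6 were higher, and with E2C replicate 1, L2C replicate 1 or L2C replicate 2 left out, 1 was.

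The stage differences of the 2 arms use the same libraries as the siRNA comparisons, so they are given side by side and not as further evidence. Dhcr7 averaged 13.2 ± 3.40 FPKM at L2C and 5.38 ± 5.06 FPKM at E2C in siEchs1, a log2 difference of 1.45 (adjusted p = 0.0673). In siCon it averaged 57.4 ± 6.93 FPKM at L2C and 3.88 ± 0.976 FPKM at E2C, a difference of 3.59 (adjusted p = 9.39e-05). Scd1 averaged 6.99 ± 5.08 FPKM at L2C and 3.61 ± 4.68 FPKM at E2C in siEchs1, a difference of 0.98 (adjusted p = 0.423). In siCon it averaged 97.9 ± 8.64 FPKM at L2C and 5.02 ± 1.55 FPKM at E2C, a difference of 4.07 (adjusted p = 0.000538). Both genes thus reached their highest group mean in siCon L2C.

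Sqle averaged 15.1 ± 3.78 FPKM at L2C and 10.9 ± 6.71 FPKM at E2C in siEchs1 (adjusted p = 0.399). In siCon it averaged 64.7 ± 13.5 FPKM at L2C and 14.7 ± 0.621 FPKM at E2C, a log2 difference of 2.05 (adjusted p = 0.00125). Srebf1 averaged 70.2 ± 16.6 FPKM at L2C and 6.83 ± 2.89 FPKM at E2C in siEchs1, a difference of 3.24 (adjusted p = 0.000866). In siCon it averaged 4.92 ± 0.549 FPKM at L2C and 4.70 ± 3.42 FPKM at E2C (adjusted p = 0.7). High Srebf1 was thus seen in siEchs1 L2C, and the difference between the arms is the one tested above.

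The genes that were lower at L2C in siCon were present at E2C in some amount already. Idi1, the isopentenyl diphosphate isomerase, averaged 21.6 ± 6.49 FPKM at L2C and 54.4 ± 17.3 FPKM at E2C in siEchs1, and fell there by 1.29 (adjusted p = 0.04). In siCon it averaged 16.7 ± 6.48 FPKM at L2C and 94.8 ± 20.5 FPKM at E2C, and fell by 2.48 (adjusted p = 0.000213). Nsdhl averaged 41.1 ± 1.55 FPKM at L2C and 39.3 ± 10.96 FPKM at E2C in siEchs1 (adjusted p = 0.909). In siCon it averaged 11.8 ± 6.16 FPKM at L2C and 31.6 ± 3.61 FPKM at E2C, and fell by 1.503 (adjusted p = 0.0082). For Nsdhl, the difference of siRNA effects between stages did not pass (1.60, adjusted p = 0.0714). Srebf2 averaged 48.6 ± 23 FPKM at L2C and 64.7 ± 43.3 FPKM at E2C in siEchs1 (adjusted p = 0.924), and 23.1 ± 7.57 FPKM at L2C and 92.3 ± 5.85 FPKM at E2C in siCon, where it fell by 2.01 (adjusted p = 0.0142). Sc5d, the sterol C5 desaturase, fell by 1.06 in siCon (adjusted p = 0.0384).

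**Figure D4:**
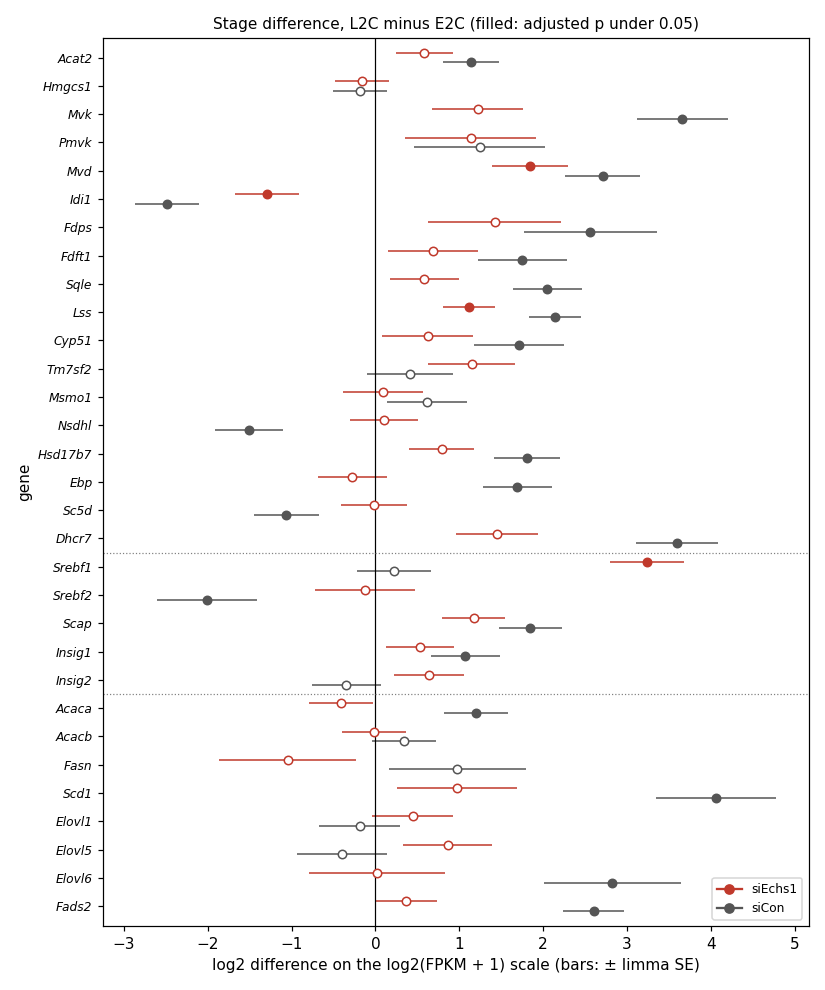
Log2 difference, L2C minus E2C, on the log2(FPKM + 1) scale (horizontal axis; bars show the limma SE) for the 31 genes tested (vertical axis, by role), in siEchs1 and in siCon embryos, filled where the adjusted p was under 0.05. Filled siCon points reach 4.07 for Scd1, and the filled siEchs1 points are Mvd, Lss, Srebf1 and Idi1. The filled siCon point of Fads2 carries no independent weight, since Fads2 passed the filter on low values only through siCon L2C.

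Pathway genes outside the set, listed by role, were called in both directions too. Beside shares of 48.8% of all genes called at L2C and 20.3% at E2C, the counts were as follows. On the sterol side, 6 were higher and 7 lower of 22 tested at L2C, and 7 higher and 2 lower at E2C. On the fatty acid side, 9 were higher and 5 lower of 24 at L2C, and 7 higher and 1 lower at E2C. The genes named next were picked for the smallest adjusted p in each siRNA comparison, so they are not typical of these lists. Npc1, which exports cholesterol from lysosomes, was at 45.5, 58.9 and 86.8 FPKM in siEchs1 L2C and 5.73, 6.24 and 6.98 FPKM in siCon L2C, and rose by 3.10 (adjusted p = 0.000121). At E2C Npc1 was at 38.3, 47.2 and 15.5 FPKM in siEchs1 and 2.94 to 3.40 FPKM in siCon, and rose by 2.93 (adjusted p = 0.000654). Npc1 was thus higher in every siEchs1 library at both stages.

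Mlycd, which breaks down malonyl-CoA, was at 72.1, 34.2 and 39.4 FPKM in siEchs1 L2C and 0.61 to 1.85 FPKM in siCon L2C, and rose by 4.46 (adjusted p = 7.42e-05). Aacs, which activates acetoacetate for lipid synthesis, was at 2.39 to 4.51 FPKM in siEchs1 L2C and 13.2 to 27.9 FPKM in siCon L2C, and fell by 2.49 (adjusted p = 0.000196). Ggps1, which makes geranylgeranyl diphosphate, was at 9.63 to 10.7 FPKM in siEchs1 L2C and 43.2 to 50.35 FPKM in siCon L2C, and fell by 2.06 (adjusted p = 0.000278). At E2C Ggps1 fell by 1.504 (adjusted p = 0.00631). Dgat1, of triglyceride synthesis, and Acsl4, an acyl-CoA synthetase, rose at E2C by 1.82 (adjusted p = 0.00679) and 1.78 (adjusted p = 0.00874). The siRNA effect on Aacs, Acsl4 and Dgat1 differed between stages by -2.90, -2.88 and -2.43, with adjusted p-values of 0.00525 to 0.0131.

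In the treatment experiment, 26 of the 33 genes passed the filter, and 0 were called in any of the 3 comparisons. Across all 13789 genes tested, 0.529% were called in crotonate against DMSO (0.210% higher and 0.319% lower). In acetate against DMSO the share was 0.0653% (0.00725% higher and 0.0580% lower), and in crotonate against acetate it was 1.86% (1.02% higher and 0.841% lower). At an unadjusted p under 0.05, limma gave 7 of the 26 in crotonate against DMSO, beside 2254 of all 13789 genes, 1 in acetate against DMSO, beside 822, and 5 in crotonate against acetate, beside 2694. The median log2 difference of the 26 was -0.28 in crotonate against DMSO, beside -0.15 over all genes, and -0.12 in acetate against DMSO, beside -0.08. It was -0.29 in crotonate against acetate, beside -0.09. The comparisons with DMSO share the DMSO libraries. Mvk, Pmvk, Acacb, Scd2, Elovl6, Fads1 and Fads2 stayed below the filter.

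Hmgcs1 was at 183 and 188 FPKM with crotonate, 179 and 371 FPKM with acetate, and 446 and 442 FPKM with DMSO. Both treatments were below DMSO in every library, and 1 acetate library was at the crotonate level. Against DMSO, the log2 difference was -1.25 with crotonate (95% interval -2.09 to -0.41, adjusted p = 0.147) and -0.78 with acetate (-1.63 to 0.06, adjusted p = 0.784). Fdft1 was at 22.6 and 31.2 FPKM with crotonate, 29.2 and 87.8 FPKM with acetate, and 74.3 and 121 FPKM with DMSO. Crotonate against DMSO gave -1.80 (-3.01 to -0.59, adjusted p = 0.147). Scap was at 13.2 and 13.4 FPKM with crotonate, 10.2 and 28.6 FPKM with acetate, and 38.55 and 40.95 FPKM with DMSO, which was above all other libraries. Crotonate against DMSO gave -1.51 (-2.58 to -0.44, adjusted p = 0.165).

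The 4 genes Hmgcs1, Fdft1, Scap and Srebf2 passed in crotonate against DMSO when both acetate libraries were left out (limma adjusted p-values of 0.0177 to 0.0421). In that fit 1147 of all 13789 genes were called, against 73 in the main fit, so the rise in calls was not particular to these genes. The acetate libraries enter this comparison only through the shared spread and were the least alike of a treatment pair (Spearman 0.848). In acetate against DMSO without acetate replicate 2, the log2 difference was -1.31 for Hmgcs1, -1.54 for Lss, -1.87 for Scap and -1.335 for Insig1. The median over all genes was -0.196 there. That fit leaves 1 acetate library, assumed to vary like the other groups, so no call is read from it. Elovl1 was at 27.9 and 17.3 FPKM with crotonate, 35.8 and 46.0 FPKM with acetate, and 44.9 and 45.1 FPKM with DMSO. Elovl5 was at 3.88 and 1.95 FPKM with crotonate, 3.00 and 5.07 FPKM with acetate, and 9.75 and 7.12 FPKM with DMSO. Neither elongase passed (adjusted p = 0.197 and 0.183 in crotonate against DMSO).

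Sodium crotonate and sodium acetate are salts of short-chain fatty acids, and crotonate has the longer, unsaturated chain. Their doses were not given, so it is unknown whether they matched, and they were compared as 1 pair. Srebf2 was at 1672 and 2054 FPKM with crotonate, 987 and 377 FPKM with acetate, and 1013 and 1061 FPKM with DMSO. The crotonate libraries were the highest, but crotonate against acetate (1.60, 95% interval 0.59 to 2.62) had an adjusted p of 0.0981. Nsdhl was at 35.3 and 33.5 FPKM with crotonate, 90.4 and 74.4 FPKM with acetate, and 57.8 and 53.8 FPKM with DMSO. Crotonate libraries lay below, and acetate libraries above, the DMSO libraries, and crotonate against acetate was -1.23 (-1.87 to -0.59, adjusted p = 0.0701). Acaca was at 7.06 and 7.63 FPKM with crotonate, 0.83 and 2.91 FPKM with acetate, and 2.91 and 3.38 FPKM with DMSO, and crotonate against acetate was 1.64 (0.64 to 2.64, adjusted p = 0.092). These intervals leave out 0 before adjustment only. Without acetate replicate 1 or 2, the log2 difference was 2.29 or 0.909 for Srebf2 and -1.09 or -1.37 for Nsdhl. Each of these fits leaves 1 acetate library, so no call is read from them.

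Other genes gave wide intervals between crotonate and acetate. Sqle was at 5.63 and 10.5 FPKM with crotonate, 3.85 and 8.11 FPKM with acetate, and 7.21 and 4.40 FPKM with DMSO, and crotonate against acetate was 0.39 (-0.70 to 1.48). Insig1 was at 35.4 and 43.6 FPKM with crotonate, 21.1 and 66.8 FPKM with acetate, and 53.7 and 55.8 FPKM with DMSO, and crotonate against acetate was 0.06 (-1.10 to 1.21). Scd1 was at 2.04 and 7.11 FPKM with crotonate, 2.55 and 0.70 FPKM with acetate, and 1.57 and 1.24 FPKM with DMSO, and Scd2 was at 0.65 and 1.67 FPKM with crotonate, 0.29 and 0.54 FPKM with acetate, and 0.75 and 0.37 FPKM with DMSO. Srebf1 was at 0.29 and 0.51 FPKM with crotonate, 0.35 and 4.60 FPKM with acetate, and 0.88 and 3.29 FPKM with DMSO. Fasn was at 1.84 and 1.07 FPKM with crotonate, 4.48 and 1.84 FPKM with acetate, and 6.41 and 1.36 FPKM with DMSO. With 2 libraries a group, differences inside such intervals were not detectable.

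**Figure D5:**
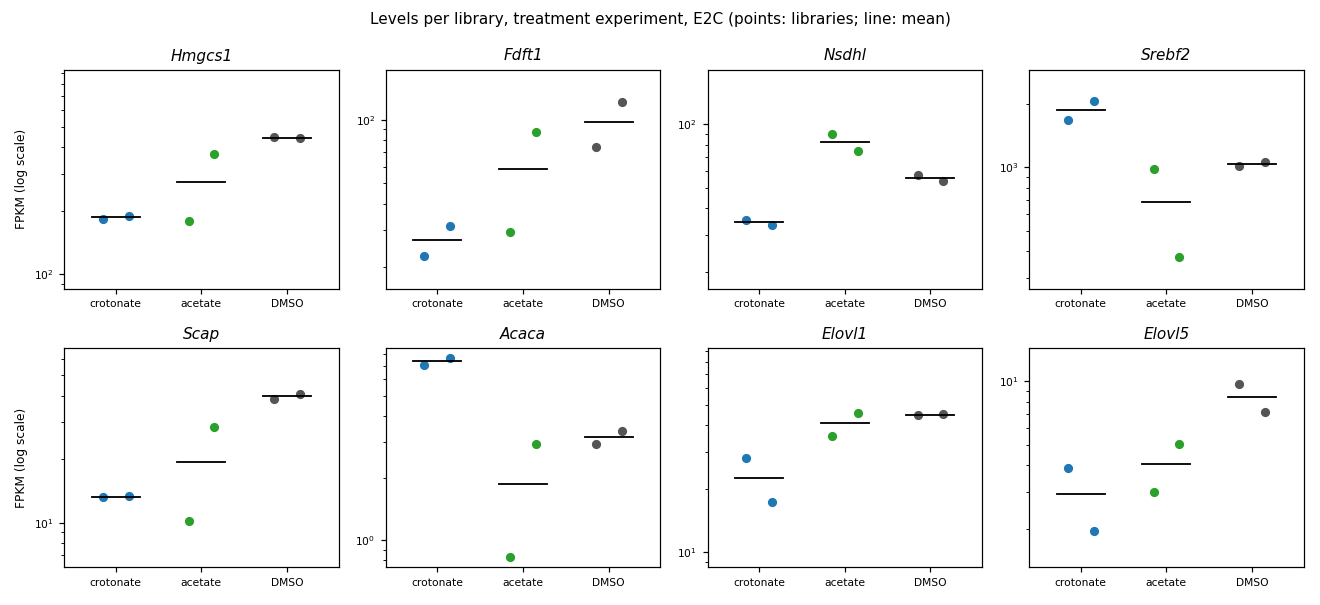
Levels of 8 of the genes in FPKM (vertical axis, log scale) with sodium crotonate, sodium acetate and DMSO at E2C, with 1 point per library and a line at the mean of the 2 libraries. Hmgcs1, Fdft1, Scap, Elovl1 and Elovl5 are lower with crotonate than with DMSO, and Srebf2 and Acaca are higher, none past an adjusted p of 0.05.

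Group means of the remaining genes were as follows. Acat2 averaged 12.8 ± 1.81 FPKM in siEchs1 L2C and 16.5 ± 4.70 FPKM in siCon L2C, and 8.32 ± 2.24 FPKM in siEchs1 E2C and 6.997 ± 2.32 FPKM in siCon E2C. Pmvk, phosphomevalonate kinase, averaged 9.16 ± 7.13 FPKM in siEchs1 L2C and 9.30 ± 4.97 FPKM in siCon L2C, and 4.32 ± 4.04 FPKM in siEchs1 E2C and 3.14 ± 1.72 FPKM in siCon E2C. Msmo1 averaged 29.3 ± 2.84 FPKM in siEchs1 L2C and 26.3 ± 19.2 FPKM in siCon L2C, and 30.2 ± 15.03 FPKM in siEchs1 E2C and 14.5 ± 2.58 FPKM in siCon E2C. None of these 3 passed in a comparison of siEchs1 with siCon. Hsd17b7 averaged 18.03 ± 5.97 FPKM in siEchs1 L2C and 20.0 ± 9.27 FPKM in siCon L2C, and 9.93 ± 2.87 FPKM in siEchs1 E2C and 4.60 ± 0.621 FPKM in siCon E2C. Mvd averaged 16.9 ± 5.00 FPKM in siEchs1 L2C and 10.0 ± 4.19 FPKM in siCon L2C, which did not pass (adjusted p = 0.186). Sc5d averaged 19.0 ± 3.49 FPKM in siEchs1 L2C and 13.5 ± 6.52 FPKM in siCon L2C (adjusted p = 0.252).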

How the data were processed

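The submitters' processing notes name cutadapt 1.16, STAR and the build mm10. The authors deposited FPKM values, 1 file per library. Which program and annotation gave them is not given in the sources used here, and no counts or strand were used. Groups came from the sample titles in the siRNA experiment and from the treatment labels in the treatment experiment. For 2 libraries of siEchs1 L2C the title and the file header gave different replicate numbers, and the title was used. The 216 entries with repeated symbols and 27 with date-like symbols were left out. From the FPKM, log2(FPKM + 1) was tested with limma 3.58.1 in R 4.3.3 (variance trend, robust, two-sided), using 1 fit of the 12 siRNA libraries and a separate fit of the 6 treatment libraries. Genes needed 1 FPKM in at least 3 siRNA or 2 treatment libraries. P-values were Benjamini-Hochberg adjusted over all genes tested, with a threshold of 0.05. This scale understates changes of low genes. Depth is not given by FPKM files. A rough estimate from the spacing of low FPKM gave 9.33 to 23.3 M fragments per library. The fit was tested only on simulated data with independent noise, where the changed genes had high levels and low spread. That test does not cover low genes or an outlying library, and no result here rests on it. Besides cell markers and overlapping genes, the genes named were the 33 members, Echs1 and some genes of a related list. From that list, up to 4 called genes with the smallest adjusted p were named per siRNA comparison. Some results are not reported here. Members and lists were chosen with earlier results of these data known. Exon overlaps were read from GENCODE M21. Alternatives were another pseudocount, no filter, quantile normalization, rescaling without mitochondrial and ribosomal RNA, no trend, a replicate block, fits of the compared groups alone and leaving out each library.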

Additional observations from a re-analysis of the deposited data

Results flagged for a closer look

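The siRNA effect differed between stages, by a test of the difference itself, for 4 of the 31 genes tested, beside 17.2% of all genes tested. The share called in the set was thus not above that of all genes. The log2 difference of effects, L2C minus E2C, was 3.02 for Srebf1 (adjusted p = 0.00963). It was -2.44 for Mvk (adjusted p = 0.0448), -1.97 for Ebp (adjusted p = 0.0357) and -2.24 for Fads2 (adjusted p = 0.0147). The Srebf1 call was kept in all 19 alternatives, while the calls for Mvk and Ebp were lost in 13 and 10 of 19. Fads2 passed the filter on low values only through siCon L2C, where it was highest, so its value was bound to that group.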

How the results depend on the processing

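At L2C, Mvk, Sqle, Tm7sf2, Nsdhl, Ebp, Dhcr7, Srebf1, Insig1, Acaca, Scd1, Elovl1, Elovl5 and Elovl6 kept their call in all 20 alternatives, while Cyp51, Insig2 and Lss lost it in 8, 12 and 5 of 20, and no named call changed direction. Fads2 entered 17 alternatives, since it missed the filter once any 1 siCon L2C library was left out, so its calls are not counted as stable. Leaving out 1 library at a time, the number of the 31 genes called was 14 to 19 at L2C, 1 to 14 at E2C, 1 to 8 for the difference of effects, 16 to 21 between stages in siCon and 1 to 6 in siEchs1, and 0 to 4 of the treatment genes in each treatment comparison. A treatment group left with 1 library was assumed to vary like the others, so those treatment counts are not read as results. With no filter, 2 genes were called at E2C, 2 for the difference of effects and 2 between stages in siEchs1. Fitting only the groups compared gave 0 at E2C, 1 between stages in siEchs1 and 4 in crotonate against DMSO. For the difference of effects, a pseudocount of 0.1 gave 1 gene, rescaling without mitochondrial and ribosomal RNA gave 7 (1 higher and 6 lower), and quantile normalization gave 2 higher and 3 lower. With a replicate block by title number, 6 genes were called at E2C, 16 at L2C, 3 for the difference of effects, 20 between stages in siCon, 2 in siEchs1 and 0 in each treatment comparison. The correlation of deviations exceeded 0.1 in 1 of 18 same-numbered siRNA pairs by title number. By file-header number it did in 2 of 18, with a highest value of 0.224. It exceeded 0.1 in 2 of 6 treatment pairs, but with 2 libraries a group the deviations mirror each other and each value appears in 2 pairs. The siRNA values gave little sign of pairing and the treatment values cannot settle it. A call lost under the block is thus not read as a weaker effect.

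Across all genes, 3578 were called at E2C but 1353 with only those groups fitted, 1748 without siCon E2C replicate 3 and 6496 without siEchs1 E2C replicate 3. For the difference of effects 3039 were called, but 1794 with the smaller pseudocount, 1869 with no filter and 1296 without siEchs1 L2C replicate 3. Between stages in siEchs1 the count was 2572, but 1704 with no filter and 566 with only those groups. In crotonate against DMSO it was 73, but 9 with no filter, 31 with the smaller pseudocount, 40 with rescaling, 41 with no trend and 1147 with only those groups. In acetate against DMSO it was 9, but 5 with quantile normalization and 0 with no filter or only those groups. In crotonate against acetate it was 257, but 162, 9, 167, 151 and 73 with the smaller pseudocount, no filter, rescaling, no trend and only those groups. Rescaling moved the median of all genes at E2C to 0.31 from 0.15 and the higher share of calls to 69.2% from 54.1%. Quantile normalization moved the median to 0.0036 from -0.21 for the difference of effects, to -0.01 from 0.51 in siCon and to -0.06 from 0.23 in siEchs1, and the higher share to 50.7% from 32.8%, to 49.7% from 71.3% and to 57.8% from 81.3%. The causes of these shifts were not tested. Depth, known only roughly, limits the lowest values. Fads1 and Scd2 were kept out of the main fit by the filter on low values. With no filter, limma called both lower in siEchs1 L2C than in siCon L2C. The log2 difference was -1.21 for Fads1 (adjusted p = 0.00944) and -1.17 for Scd2 (adjusted p = 0.0151). Of all 38140 genes in that fit, 3487 were higher and 5325 lower.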
